A study of Mus musculus with 3 samples.

Results

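Imprinted genes that are known to be expressed in brain were followed on 3 microarrays of hippocampal area CA1 from young males of C57BL/6J, an inbred mouse strain. The members were 9 listed genes, 7 that are expressed from the paternal chromosome (Nnat, Peg3, Ndn, Snrpn, Mest, Impact and Plagl1) and 2 that are expressed from the maternal chromosome (Meg3 and H19). A probe set counted for a member only when the platform annotation gave it that gene and no other. This left 12 of 12488 probe sets, for 7 genes, of which 6 were paternally expressed with 10 probe sets and 1, Meg3, was maternally expressed with 2. Snrpn had no probe set, and H19 was absent because the annotation gives its only probe set to H19 and Mir675 together.

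All 3 arrays belong to 1 group. The mice spent 2 min in a new place before a foot shock of 1 s at 0.5 mA, this cycle was given 3 times, and 1 min after the final shock they went back to their cage. RNA was taken 6 h after that shock. Whether each array carried a single animal or pooled tissue is not in the labels, and differences between arrays may be partly technical. No untrained group is used here, so no effect of training was estimated.

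Imprinted genes are expressed mainly or only from the copy inherited from 1 parent, because DNA methylation laid down in the egg or sperm marks the copies differently. They lie in clusters, in which a differentially methylated control region sets the expression of neighbours that can be active on opposite parental copies. Many act in fetal growth, and in brain they are known for roles in neuronal survival, feeding, maternal care and social behaviour. These arrays measured total transcript of each gene and could not separate the parental copies, so the terms paternal and maternal are background knowledge of each gene and were not measured.

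The probe set of H19, a long noncoding RNA next to Igf2, is shared by annotation with Mir675, whose hairpin lies inside the H19 gene. The mature microRNAs of that hairpin (RefSeq, GRCm38.p6, minus strand) are shown because they are the reason H19 has no value here. Capitals mark the seed, bases 2 to 8, and the 2 arms have different seeds.
mmu-miR-675-5p (chr7:142577112-142577133): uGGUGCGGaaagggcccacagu
mmu-miR-675-3p (chr7:142577078-142577099): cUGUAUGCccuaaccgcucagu

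Promoters are shown for the 3 genes with the most spread between arrays, Nnat, Peg3 and Meg3, each from 250 bases before to 50 bases after a RefSeq start site in GRCm38.p6. The RefSeq windows used were those of Nnat, Mest, Peg3, Snrpn, Ndn, Plagl1 and Meg3, 13 windows in all. Impact was left out of the promoter search. Capitals mark TGACGTCA, the cAMP response element that CREB binds, in Peg3 and Meg3, the TATA box motif TATAAA, searched on both strands, in Meg3, and GCGCATGC, the core motif of the factor NRF1, in Nnat. In Meg3 the matches to TATAAA on either strand overlap in 1 run, and so do those to GCGCATGC in Nnat.
Nnat (chr2:157559828-157560127, plus strand): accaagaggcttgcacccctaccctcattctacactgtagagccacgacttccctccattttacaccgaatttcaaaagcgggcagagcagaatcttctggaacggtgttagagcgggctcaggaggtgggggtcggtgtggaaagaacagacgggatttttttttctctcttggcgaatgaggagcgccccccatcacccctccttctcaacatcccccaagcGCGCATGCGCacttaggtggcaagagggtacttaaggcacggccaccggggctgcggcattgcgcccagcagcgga
Peg3 (chr7:6730370-6730669, minus strand): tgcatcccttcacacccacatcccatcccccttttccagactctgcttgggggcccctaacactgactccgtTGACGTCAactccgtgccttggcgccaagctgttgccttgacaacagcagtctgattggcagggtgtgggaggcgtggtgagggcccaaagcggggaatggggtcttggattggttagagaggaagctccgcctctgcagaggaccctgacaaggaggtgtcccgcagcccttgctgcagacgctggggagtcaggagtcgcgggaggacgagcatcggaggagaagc
Meg3 (chr12:109540746-109541045, plus strand, the first of 2 windows): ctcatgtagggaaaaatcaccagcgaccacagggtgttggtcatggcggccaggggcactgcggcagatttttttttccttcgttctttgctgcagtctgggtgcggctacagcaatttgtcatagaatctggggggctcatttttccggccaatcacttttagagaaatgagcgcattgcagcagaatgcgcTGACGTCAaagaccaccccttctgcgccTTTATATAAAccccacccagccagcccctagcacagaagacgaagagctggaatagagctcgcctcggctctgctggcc

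The cAMP response element began 57 bases upstream of the start site in Meg3 and 178 bases upstream in Peg3. It was found in 1.79% of 32851 promoter windows of the same length, and in no other of the 13 member windows searched. The NRF1 core began 26 bases upstream of the Nnat start site, was also found in the Ndn window, and occurred on either strand in 2.71% of all windows. TATAAA or its reverse complement was also found in a Snrpn window, and occurred in 13.6% of all windows. The motifs were picked after these sequences had been read, so a match is a description of the letters and nothing more. The same search for GGGCGG, the GC box, found it in Mest, Ndn and Plagl1 and in 35.7% of all windows, and AAGATGGC, the core motif of YY1, was in none of the 13 member windows and in 2.75% of all. CpG dinucleotides, the sites of DNA methylation, numbered 17 in the Nnat window, 13 in that of Peg3 and in the first of Meg3, 26 in that of Plagl1 and 11 in that of Ndn. They numbered 8, 17 and 17 in the Mest windows, 2, 3, 4 and 7 in those of Snrpn and 1 in the second window of Meg3. The median was 11 over the 13 member windows, against 7 over all windows.

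Values below are the deposited signal, a linear intensity that the arrays carry on a common scale, as mean ± SD (n = 3 arrays). Probe sets are called measured where their mean signal exceeded 174.8, the midpoint (median) of the deposited table. This applied to 9 of the 12 probe sets, for 5 genes, Nnat, Peg3, Ndn, Impact and Meg3. Signals of different probe sets depend on their probes, so no level was compared between genes. For spread between arrays the signals were scaled to a common median, floored at 47.5 and taken to log2, and the log2 range is the highest minus the lowest array. A centred value is the log2 signal on an array less the average over all 3.

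The arrays had median signals of 176, 177 and 171 and shared 6 to 18 identical values per pair. Of 9 listed CA1 pyramidal neuron markers, the 5 with a probe set lay above threshold on each array, among them Wfs1 at 2522 ± 66.0 and Pou3f1 at 579 ± 132. So did 8 of 10 interneuron and 6 of 7 oligodendrocyte markers with a probe set, so this was not particular to CA1. The ratio of 3' to 5' signal, a measure of RNA integrity, was 3.99, 1.21 and 3.94 for Gapdh and 2.57, 1.86 and 3.50 for Actb on arrays 1, 2 and 3. Array 2 was lowest with each, and stood apart from the others for Gapdh. Marker sums of some neighbouring tissues also differed between arrays. Choroid plexus and ependyma markers (5 of 9 with a probe set) summed to 2114, 5382 and 778, meningeal and fibroblast markers (9 of 9) to 12948, 8761 and 8107, and thalamic markers (6 of 7) to 3393, 5625 and 2919. The brightest genes of a list weigh most in such a sum. In a bulk sample, fewer cells of a type and less RNA per cell cannot be told apart.

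**Figure D1:**
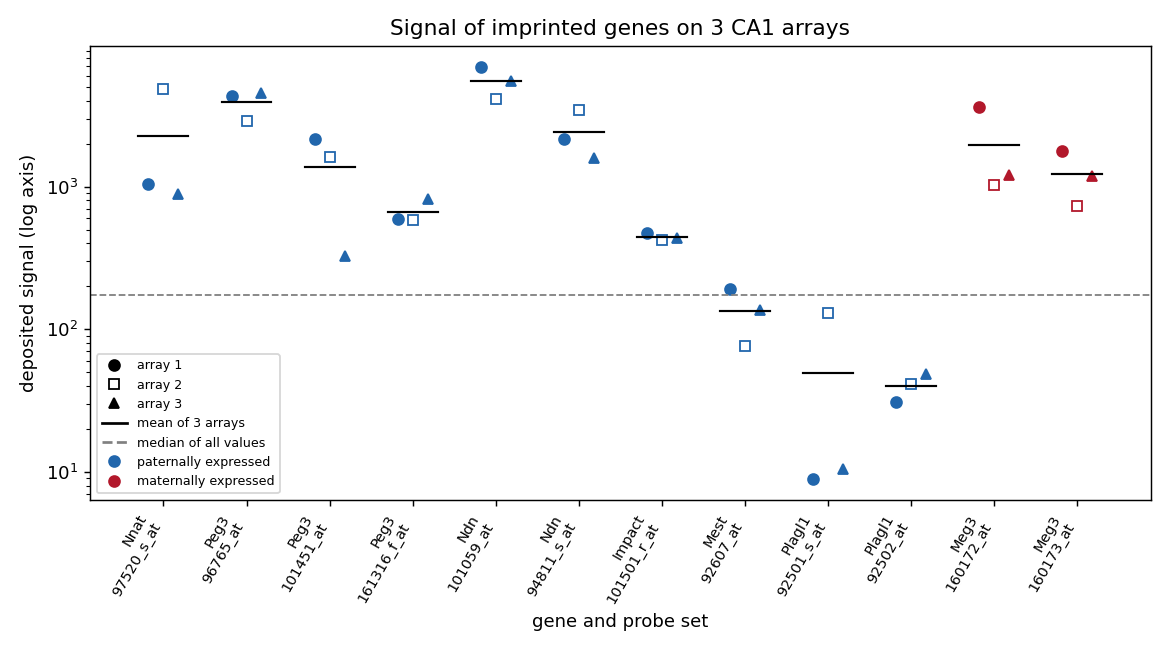
Deposited signal (log axis) of the 12 member probe sets on arrays 1 (circle), 2 (open square) and 3 (triangle), with the mean of the 3 arrays as a bar and the median of all values, 174.8, as a dashed line. Blue marks paternally and red maternally expressed genes. Levels cannot be compared between probe sets. The probe sets of Plagl1 and the mean of Mest lie under the line.

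Neuronatin (Nnat), a small membrane protein of the endoplasmic reticulum that acts in calcium handling, was well above threshold on every array and set array 2 apart. It gave 1042, 4862 and 885 on arrays 1, 2 and 3. Arrays 1 and 3 were close to each other and array 2 was more than 4 times the value of either, and 2.4% of measured probe sets set array 2 more than 2-fold above both others. The log2 range was 2.41, a 5.31-fold difference, and 0.933% of the 6218 measured probe sets had a larger one. Among 1333 measured probe sets within 2-fold of its mean signal, 0.225% did. The probe set carries the suffix _s_at, which marks probes that can be shared by similar transcripts.

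Choroid plexus and ependyma markers, thalamic markers and the 5' Gapdh signal were also highest on array 2, the last at 9368, 28001 and 9670. In sum, astrocyte (43188, 47866 and 38218), oligodendrocyte, dentate granule and hypothalamic markers were highest on array 2 too. Sums of CA1 pyramidal, CA3 and CA2, interneuron, microglia, endothelial and meningeal markers were not. Of the choroid plexus list 3 of 5 genes were measured, with centred medians of 0.06, 0.75 and -0.81 on arrays 1, 2 and 3, and Ttr, its defining secretory product, gave 1334, 4257 and 94.2. Ttr alone made up most of the sum of that list on arrays 1 and 2. Hypothalamic markers, a region where Nnat is known to be abundant, had 6 of 9 genes represented and summed to 1082.5, 1186 and 961. The 3 measured had centred medians of -0.28, 0.27 and 0.01 on arrays 1, 2 and 3, and 1 was more than 2-fold apart. Folr1 of the choroid plexus list, under threshold on average, gave 54.5, 196 and 39.9. Its array 3 value lay under the floor of 47.5, so its centred values depend on the floor and are not set beside Nnat. The measured marker Ttr had centred values of 0.70, 2.37 and -3.08, beside -0.67, 1.54 and -0.87 for Nnat. The part of these differences in the Nnat signal was not tested.

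Peg3, a zinc finger transcription factor known for roles in maternal care and in cell death downstream of p53, had 3 measured probe sets that did not share 1 pattern. The brightest, 96765_at, gave 4330, 2902 and 4563 on arrays 1, 2 and 3, with a log2 range of 0.70. The probe set 161316_f_at gave 596, 587 and 824.5, in the same order of arrays. The probe set 101451_at gave 2160, 1609 and 329, so array 3 was more than 2-fold below both others, as in 1.35% of measured probe sets.

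Its log2 range was 2.67, a 6.37-fold difference, which 0.482% of measured probe sets exceeded. Peg3 was therefore either lowest on array 2 or lowest on array 3, depending on the probes. The root mean square difference of centred values between 101451_at and the other probe sets was 1.35 and 1.42, against a median of 0.31 over 862 pairs of measured probe sets for the same gene. On array 3 the 3' signal of Actb was also lowest, at 41349, 31982 and 19166, while that of Gapdh was highest there, at 37341.5, 33952 and 38102. The part of RNA quality in the low array 3 value of 101451_at was not tested.

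Necdin (Ndn), a MAGE family protein that restrains the cell cycle in postmitotic neurons and is lost in the human Prader-Willi syndrome, was high above threshold with both probe sets, which disagreed. The probe set 101059_at gave 6964.5, 4097 and 5487 on arrays 1, 2 and 3, with a log2 range of 0.77. The probe set 94811_s_at gave 2162, 3451 and 1592, with a log2 range of 1.07. Array 2 was thus the lowest with the first and the highest with the second, and a direction for Ndn between arrays cannot be given. Among all 862 pairs of measured probe sets for the same gene, 36.0% shared the highest array and 20.9% the whole order, so most such pairs differed in order. The root mean square difference of the Ndn pair was 0.70, against the median of 0.31 over all pairs.

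Impact, a regulator of translation that keeps the kinase GCN2 from being activated through GCN1, was the steadiest member. Its signal was 471, 424.5 and 433 on arrays 1, 2 and 3. The log2 range was 0.16, and 91.8% of measured probe sets had a larger one.

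Mest, an enzyme of the alpha/beta hydrolase fold known from growth and maternal behaviour, was near the threshold. It gave 191, 76.1 and 137 on arrays 1, 2 and 3, above threshold on 1 of them. Plagl1, a zinc finger factor of growth arrest that is known to regulate other imprinted genes, was under threshold on every array. The probe set 92501_s_at gave 8.9, 129 and 10.5 and 92502_at gave 30.8, 41.3 and 48.5. The highest signal of 15 bacterial control probe sets was 54.1, 115 and 55.6 on arrays 1, 2 and 3, so on each array at least 1 of the Plagl1 probe sets lay under the controls, and 92501_s_at was above them on array 2. A signal under threshold does not show that the transcript was absent.

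Meg3, a long noncoding RNA of the Dlk1-Dio3 cluster that is abundant in neurons, was the only maternally expressed member with a value, and both of its probe sets were highest on array 1. The brighter, 160172_at, gave 3652, 1036 and 1214 on arrays 1, 2 and 3, a log2 range of 1.82 or 3.54-fold. The probe set 160173_at gave 1768, 734.5 and 1180, a log2 range of 1.27 or 2.42-fold. The order of arrays was the same with both, array 1 above array 3 above array 2.

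Array 1 was more than 2-fold above both other arrays for 160172_at, a pattern seen in 0.418% of measured probe sets. Meningeal and fibroblast markers were also highest on array 1 in sum. Of that list 6 of 9 genes were measured, with centred medians of 0.31, -0.21 and 0.00 on arrays 1, 2 and 3, and Ptgds gave 8808, 4634.5 and 4726. Ptgds alone made up most of the sum on each array. Their part in the Meg3 signal was not tested.

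**Figure D2:**
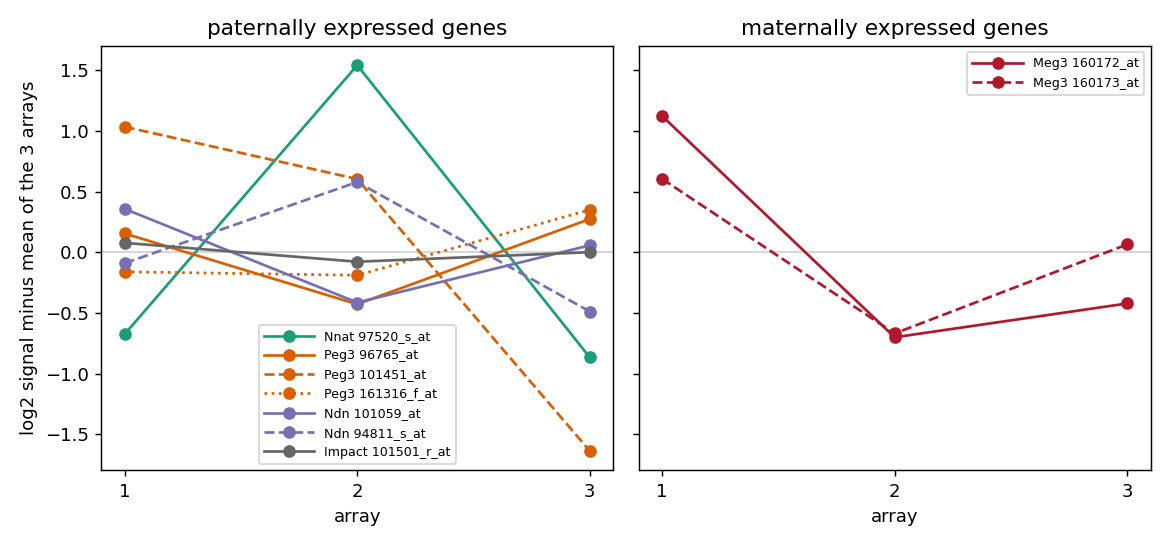
Centred log2 signal (array minus the mean of the 3 arrays) of the 9 measured member probe sets, paternally expressed on the left and maternally expressed on the right. Lines join values of 1 probe set and imply no order of the arrays. Nnat peaks on array 2 at 1.54, both Meg3 probe sets peak on array 1, and the Peg3 and Ndn probe sets cross each other.

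The paternally and the maternally expressed genes were compared by their shifts on each array, with the brightest probe set standing for each gene. The paternally expressed genes, 4 measured of 7 listed, had median centred log2 signals of 0.12, -0.25 and 0.03 on arrays 1, 2 and 3, against 1.12, -0.70 and -0.42 for Meg3. The paternal minus maternal difference on arrays 1, 2 and 3 was -1.01, 0.45 and 0.45. On array 1 all 4 paternally expressed genes lay below Meg3, from -0.67 for Nnat to 0.36 for Ndn. On array 2 all 4 lay above it, from -0.43 for Peg3 to 1.54 for Nnat, and on array 3 Nnat, at -0.87, lay below Meg3 and the other 3 above. How many of all measured genes lay on the same side of Meg3 was not counted. For Meg3, array 1 was more than 2-fold above both others, as in 0.418% of measured probe sets. Whether these positions set the paternally expressed genes apart from other genes was therefore not tested.

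Because centred values add up to 0 over 3 arrays and Meg3 alone stands for the maternal side, no test of this difference was possible. Its sign on array 3 turned to -0.098 when all measured probe sets of a gene were averaged, and without array 1 the differences on arrays 2 and 3 were 0.0019 and -0.0019. On arrays 1 and 2 the difference was -0.76 and 0.72 with all measured probe sets averaged, and -1.14 and 0.86 with means in place of medians, so its size on array 2 moved by more than 1.5 times. The order of arrays seen for Meg3 was taken from its own 2 probe sets. Of the 7 measured paternally expressed probe sets, 101059_at of Ndn and that of Impact also had it. For Impact the log2 range was only 0.16. Mest, not measured, had it too. Of all measured probe sets 17.6% had this order, so it was not particular to Meg3.

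Member probe sets were often far apart between arrays, but none passed the test across all probe sets. Of the 9 measured, 5 were more than 2-fold apart, those of Nnat and Meg3, 101451_at of Peg3 and 94811_s_at of Ndn, against 12.1% of all measured probe sets. Of the paternally expressed 3 of 7 were, and of the maternally expressed 2 of 2. The median log2 range was 1.07 for the members and 0.48 over all measured probe sets. The members were chosen with the spread of Nnat on these arrays already known, and probe sets of 1 gene are not independent, so the count is a description.

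Variation was tested with limma, which set each probe set's variance over the 3 arrays against that of others at its level, with Benjamini-Hochberg adjustment over all 6218. At an adjusted p of 0.05, 0 of 9 passed, against 0.0161% of all measured probe sets, and at an unadjusted p of 0.05, 5 of 9 did, against 5.21%. The lowest limma adjusted p was 0.515, shared by Nnat, 101451_at of Peg3 and 160172_at of Meg3. It was 0.89 for 160173_at of Meg3, 0.899 for 94811_s_at of Ndn and 0.998 for Impact. In simulated data a log2 shift of 1 array by 2 was called in 1.5% of cases and by 3 in 49%. A lack of calls therefore says little about spreads of the size seen here.

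These counts depended on the arrays and the threshold used. The number more than 2-fold apart was 3, 2 and 3 without arrays 1, 2 and 3, when 8.03%, 3.86% and 6.71% of all measured probe sets were. With the threshold at the 25th percentile of all values, Nnat and 101451_at of Peg3 passed the limma test, each at an adjusted p of 0.042, when 0.0623% of 9627 measured probe sets passed. Without array 3, Nnat and 160172_at of Meg3 passed, with limma adjusted p of 0.00044 and 0.0068, when 0.724% of all measured probe sets passed. Nnat had a log2 range of 0.19 without array 2. Meg3 160172_at had 0.28 without array 1. Peg3 101451_at had 0.43 without array 3. Each of these spreads was thus set by 1 array, and a different one for each gene.

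**Figure D3:**
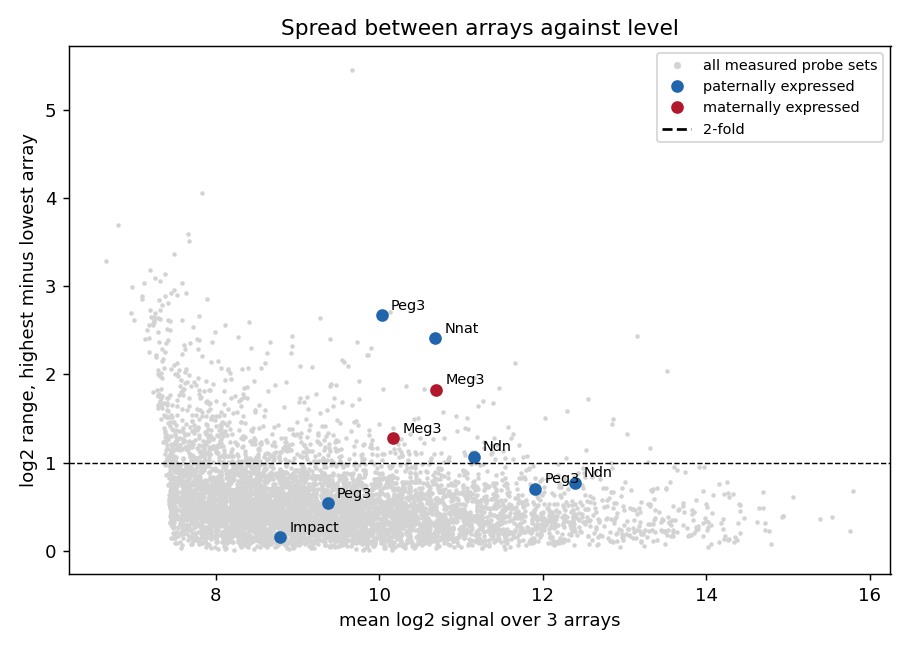
Log2 range between arrays against mean log2 signal for all 6218 measured probe sets (grey) and the 9 measured member probe sets (blue paternally, red maternally expressed). The dashed line marks 2-fold. The upper 3 members are 101451_at of Peg3 at 2.67, Nnat at 2.41 and 160172_at of Meg3 at 1.82.

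By the smallest root mean square difference of centred log2 signal over the 3 arrays, among 4871 other measured genes, the profiles nearest to Nnat were Kif5a, Rrp1, Dnajc5, Rnd2 and Timp2, at 0.12 to 0.23. Kif5a, a neuronal kinesin, gave 244 on array 1, 922 on array 2 and 182 on array 3. The nearest to Meg3 160172_at were Rgs11, Twist2, Prkdc, Erdr1 and Ahcy, at 0.064 to 0.26, and to 160173_at Clk1, Cars, Smoc2, Gss and Ikbkg, at up to 0.053. By the same measure the 2 Meg3 probe sets lay 0.41 apart, so these lists could not share a gene. The nearest to Peg3 101451_at were Bmpr2, Gtf2f2, Phf7, Rnpep and Pla2g4f, at 0.058 to 0.22. The nearest to Ndn 94811_s_at were Celsr2, Apobec2, Sprr2i, Cry2 and Asrgl1, at up to 0.049. Few genes had the more extreme profiles: 7 lay within 0.25 of Nnat, 4 of Meg3 160172_at and 5 of Peg3 101451_at, against 195 for Meg3 160173_at and 436 for Ndn 94811_s_at. Over 3 arrays such likeness is a description.

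Measured neighbours of Nnat, Meg3 and Ndn in the same imprinted clusters had log2 ranges below those of these members. Blcap, whose gene holds Nnat inside it and which has maternally expressed transcripts in brain, gave 950, 959 and 919.5 on arrays 1, 2 and 3. Its log2 range was 0.011, smaller than in 99.9% of measured probe sets, beside 2.41 for Nnat. Dlk1, a paternally expressed Notch ligand homologue next to Meg3, gave 296, 440.0 and 387, lowest on array 1 where Meg3 was highest, with a log2 range of 0.57.

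Igf2, the paternally expressed growth factor next to H19, gave 1765, 2198 and 1582 with the brighter probe set and 41.9, 29.5 and 8.5 with the other. Ube3a, a ubiquitin ligase expressed from the maternal copy in neurons and linked to the region of Ndn and Snrpn, gave 374, 239 and 372, with a log2 range of 0.69 and its lowest signal on array 2. Magel2 and Mkrn3 of the same region were under threshold, at 16.3 ± 4.85 and 32.5 ± 26.1, and so was Usp29, next to Peg3, at 54.2 ± 9.77. Snrpb, which encodes the close relative of the SmN protein of Snrpn and is not imprinted, gave 9057 ± 314 with its brighter probe set. The other was under threshold at 11.2 ± 5.1.

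**Figure D4:**
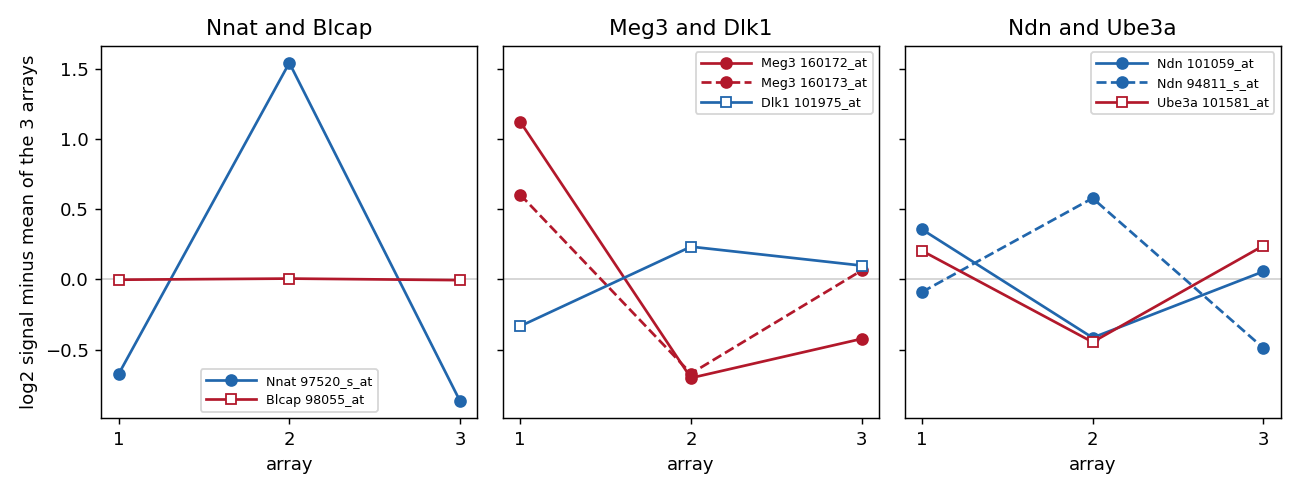
Centred log2 signal by array for 3 neighbour pairs, Nnat with Blcap, Meg3 with Dlk1 and Ndn with Ube3a. Filled circles are members, open squares neighbours, blue paternally and red maternally expressed. Lines join values of 1 probe set and imply no order of the arrays. Blcap is flat where Nnat ranges over 2.41.

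Of 43 further imprinted genes on a list, 22 had a probe set and 10 were measured. Among the 10, 0 were more than 2-fold apart between arrays and 0 passed the limma test at an adjusted or at an unadjusted p of 0.05, with a median log2 range of 0.40. Over all measured probe sets the shares were 12.1%, 0.0161% and 5.21%, so with 10 genes these counts lie near the background. Of these, 4 were paternally expressed, Igf2, Dlk1, Rasgrf1 and Sgce, and 5 maternally expressed, Blcap, Ube3a, Igf2r, Kcnq1 and Commd1. For Gnas the expressed copy depends on tissue and transcript. Rasgrf1, a Ras exchange factor with a role in hippocampal memory, gave 2741, 2777 and 3455. Sgce, the epsilon-sarcoglycan gene of myoclonus dystonia, gave 1114 ± 41.0, and Gnas, which encodes the stimulatory G protein subunit, gave 43288 ± 4759 with its brightest probe set. The other Gnas probe sets were under threshold, at 120 ± 63.8 and 40.2 ± 14.2. Among genes under threshold, 2 were more than 2-fold apart with their brightest probe set, Ascl2 at 108.5 ± 102 and Grb10 at 72.5 ± 47.0, each highest on array 1, at 226 and 125.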

How the data were processed

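Total RNA of CA1 was measured on 3 short-oligonucleotide arrays of 1 group. The deposited values are signal intensity per probe set on a linear scale. The 2% trimmed mean was 500.3 on each array, so they had been scaled before deposit. How the signals were computed is not given in the sources used here. Detection calls were not used. Of 12488 probe sets 66 were controls, 10833 of the rest had 1 gene symbol, 396 several and 1193 none in the platform annotation. Symbols were checked through Entrez identifiers against the GRCm38.p6 gene table, and 0 changed.

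For the spread, arrays were scaled so that their measured probe sets had 1 median (factors 0.991, 0.987 and 1.02), floored at 47.5, the 25th percentile of all values, and log2-transformed. The variance test used limma 3.58.1 in R 4.3.3 (fitFDistRobustly with an intensity trend, tails 0.05 and 0.1, Benjamini-Hochberg). The test was also tried on simulated data, whose levels and variances were drawn from the fit to these arrays. In them a log2 shift of 1 array by 2 was called in 1.5% of cases and by 3 in 49%. The number of arrays limits the precision.

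The members and lists were chosen with earlier results of these data known. Named are the members, other imprinted genes in their clusters or more than 2-fold apart, Snrpb, the 5 nearest profiles and leading markers. Of the markers only those that bear on a result are printed. Rasgrf1, Sgce, Gnas, Igf2r, Kcnq1, Commd1 and the imprinting and partner genes of the closing section lie outside this rule and were chosen after their values were seen.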

Additional observations from a re-analysis of the deposited data

How the results depend on the processing

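The count of member probe sets more than 2-fold apart was 5 without scaling, after quantile normalization, after cyclic loess, at floors at the 10th and 40th percentiles and at a threshold at the 75th, and 7 at a threshold at the 25th percentile or with none. The share of all measured probe sets was 6.59% at the 75th percentile, 25.2% at the 25th and 19.7% with none, against 12.1%. It was 2 to 3 when 1 array was left out. The count past the limma variance test was 0 in these settings and with a prior without robust fit, except for 2 at a threshold at the 25th percentile, where Nnat and 101451_at of Peg3 had adjusted p of 0.042. It was 0 to 2 when 1 array was left out, with 2 without array 3. Over its 13 settings the limma adjusted p of Nnat ran from 0.00044 to 1 and that of 160172_at of Meg3 from 0.0068 to 1. The paternal minus maternal difference on array 1 lay between -1.14 and -0.71. On array 3 it was -0.098 and -0.0019 in the settings named above. No paired analysis was possible because all arrays belong to 1 group.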

Other observations

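Factors that keep imprinted marks in place were measured in part. Trim28, the corepressor that holds methylation at imprinted control regions, gave 6000, 5551 and 6763 on arrays 1, 2 and 3. Dnmt1, the maintenance DNA methyltransferase, gave 665, 1083 and 779 with its brighter probe set, highest on array 2. That probe set had a log2 range of 0.70 and a limma adjusted p of 0.988. The other was under threshold at 32.8 ± 11.3. Ctcf, the insulator protein that controls enhancer use at Igf2 and H19, gave 394 ± 23.7. Zfp57, the zinc finger protein that guides Trim28 to methylated imprints, was under threshold at 37.5 ± 14.2.

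Some partners of the member proteins had probe sets. Maged1, a MAGE family relative of Ndn, gave 6082 ± 282. Siah1a and Traf2, which bind Peg3, gave 536, 488 and 544, and 591, 660.5 and 338 on arrays 1, 2 and 3. Traf2 was lowest on array 3, with a log2 range of 0.92 and a limma adjusted p of 0.971. Of the Peg3 probe sets 101451_at was lowest there too, while 96765_at and 161316_f_at were highest there, as Siah1a was. Eif2ak4, which encodes GCN2, the kinase that Impact restrains, was under threshold at 109, 46.4 and 153.5 on arrays 1, 2 and 3.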
